A study of Mus musculus with 8 samples.

Results

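The Hoxb cluster was read here as all accessible regions, or peaks, that overlap a 110 kb window of mouse chromosome 11 (mm9, 96125000 to 96235000), with Hoxb9 at the low end and Hoxb1 at the high end. The window held 22 of the 134473 peaks in the table, and no measured value was used to choose them. The assay was bulk ATAC-seq in its Omni-ATAC form, where Tn5 transposase cuts DNA that is not packed away and detergents keep mitochondrial DNA low. Bone marrow of C57BL/6 mice aged 8 to 12 weeks was sorted for MPP2 cells, which are multipotent progenitors that are lineage-negative, Sca1-positive and Kit-positive (LSK), lack Flt3 and carry CD150 and CD48. Cells positive for both Vwf and Gata1 (Vwf+Gata1+) formed the first group, and cells with Gata1 only (Vwf-Gata1+) the other. Each group had 4 libraries of 500 cells. Both groups were therefore Gata1-positive, and Vwf, the gene of von Willebrand factor, was the only marker by which the labels separate them. No label says whether the 4 libraries of a group came from separate animals or how Vwf and Gata1 were detected, so a p-value here reflects only how these libraries vary, which may be technical.

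Hox genes encode homeodomain transcription factors that give cells positional identity along the body axis, and they lie in clusters whose gene order follows the order of their expression along that axis. In blood, HOX proteins act with PBX and MEIS partners, and Hox expression is generally high in stem cells and early progenitors and declines with maturation. Within this cluster, Hoxb4 is known for expanding blood stem cells when it is overexpressed, Hoxb5 marks long-term blood stem cells in the mouse, and Hoxb8 can hold myeloid progenitors in an immature state. Hoxb1 and Hoxb2, at the other end, are best known for patterning of the hindbrain, and retinoic acid receptors act on elements in and beside the cluster. The RefSeq gene table for GRCm38.p6 was used here only for names and order. Sorted by the lowest coordinate of the annotated span, the genes run Hoxb9, Hoxb8, Hoxb7, Hoxb6, Hoxb5, Hoxb3, Hoxb4, Hoxb2 and Hoxb1. This sorting uses span starts alone, so where spans overlap it need not give the order of the coding sequences, as for Hoxb3 and Hoxb4. The table also places the lncRNA gene Hoxb5os, the microRNA gene Mir10a and the lncRNA gene Hoxb3os among them. That table is of another build than the peaks and coordinates were not converted, so peaks are described by their place between the Hoxb9 end and the Hoxb1 end and are not assigned to single genes, exons or introns.

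Promoter sequences from RefSeq (GRCm38.p6) matched 3 of the 9 Hoxb genes, Hoxb8, Hoxb4 and Hoxb1. They are shown because they were the only Hoxb promoters available. By gene order they lie near the low end of the cluster, in its middle and at its high end, and their base composition differs. Each is the 250 bases before the annotated start, on the plus strand. Capitals mark matches, on either strand, to 5 short motifs. GATA factors were searched as AGATAA, where T is also allowed as the first letter and G as the last. The motif of PBX-HOX pairs was searched as TGATTNAT, and the half-site of nuclear receptors, which include the retinoic acid receptors, as AGGTCA. The core promoter motifs were the TATA box, searched as TATAAA, and the box that the factor NF-Y recognises, searched as CCAAT. No peak was placed on these sequences, since the peaks are in mm9.
Hoxb8, chr11:96281655-96281904: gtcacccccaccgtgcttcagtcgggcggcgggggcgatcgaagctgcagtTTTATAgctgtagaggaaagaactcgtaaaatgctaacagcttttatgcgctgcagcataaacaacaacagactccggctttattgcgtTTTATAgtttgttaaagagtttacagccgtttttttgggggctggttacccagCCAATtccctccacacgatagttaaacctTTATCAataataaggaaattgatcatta
Hoxb4, chr11:96318017-96318266: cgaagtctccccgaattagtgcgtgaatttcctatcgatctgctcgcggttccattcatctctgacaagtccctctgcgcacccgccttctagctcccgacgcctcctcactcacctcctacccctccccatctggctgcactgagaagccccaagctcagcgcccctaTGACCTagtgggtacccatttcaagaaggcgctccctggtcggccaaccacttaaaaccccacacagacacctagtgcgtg
Hoxb1, chr11:96365508-96365757: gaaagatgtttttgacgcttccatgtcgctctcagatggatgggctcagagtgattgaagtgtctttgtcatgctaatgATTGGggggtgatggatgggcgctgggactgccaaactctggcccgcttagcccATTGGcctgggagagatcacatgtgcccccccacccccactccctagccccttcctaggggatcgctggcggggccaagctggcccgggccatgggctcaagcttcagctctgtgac

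The GC content of the Hoxb8 sequence was 44.4%, that of Hoxb4 58% and that of Hoxb1 59.2%, where the median of 32851 promoters of the table was 52.4%. They held 12, 14 and 7 CpG dinucleotides, against a median of 6. The Hoxb8 sequence had 1 GATA match, 2 matches to TATAAA and 1 to CCAAT. The Hoxb4 sequence had 1 half-site match, and the Hoxb1 sequence had 2 matches to CCAAT. None of the 3 held the PBX-HOX letters. Of all promoters of this length, 26.5% held a GATA match, 2.83% the PBX-HOX motif, 14.02% the half-site, 12.4% TATAAA and 33.9% CCAAT. The E-box letters CANNTG, left in lower case, occurred 1 time in Hoxb4, 3 times in Hoxb1 and not in Hoxb8, and 66.2% of promoters held them. Such matches are short letter strings and describe the sequence only.

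Total counts in peaks ran from 4628997 to 7753538 per library, and the 22 Hoxb peaks took between 791 and 1588 of them. Signal is given below as CPM (counts scaled to library size) after TMM scaling, which assumes that most peaks do not differ. Peaks are numbered 1 to 22 from the Hoxb9 end to the Hoxb1 end. Whether the gate markers themselves were accessible was not checked, because peaks were not assigned to genes.

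Accessibility was spread along the cluster but uneven. The 22 peaks covered 12.7% of the window, with widths of 200 to 1401 bp and a median of 542 bp, where all peaks of the table had a median of 393 bp. Peaks 1 to 16 lay in the low-end stretch, which ends 56.6 kb from the Hoxb9 end of the window. A gap of 19.1 kb without a peak followed, and peaks 17 to 22 lay beyond it. The low side of the gap held 84.8% of the summed signal and the high side 15.2%. Peaks covered 10236 bp on the low side and 3755 bp on the high side, and neither these shares nor those below are scaled for length. In steps of 10 kb from the Hoxb9 end, the shares of the signal were 7.14%, 5.32%, 7.60%, 15.02%, 24.5% and 25.2% up to 60 kb. No peak lay between 60 and 70 kb or between 90 and 100 kb. The remaining steps held 3.20% (70 to 80 kb), 8.93% (80 to 90 kb) and 3.03% (100 to 110 kb). The middle of the cluster, from 40 to 60 kb, thus held 49.8% of the signal with 6 of the 22 peaks.

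**Figure D1:**
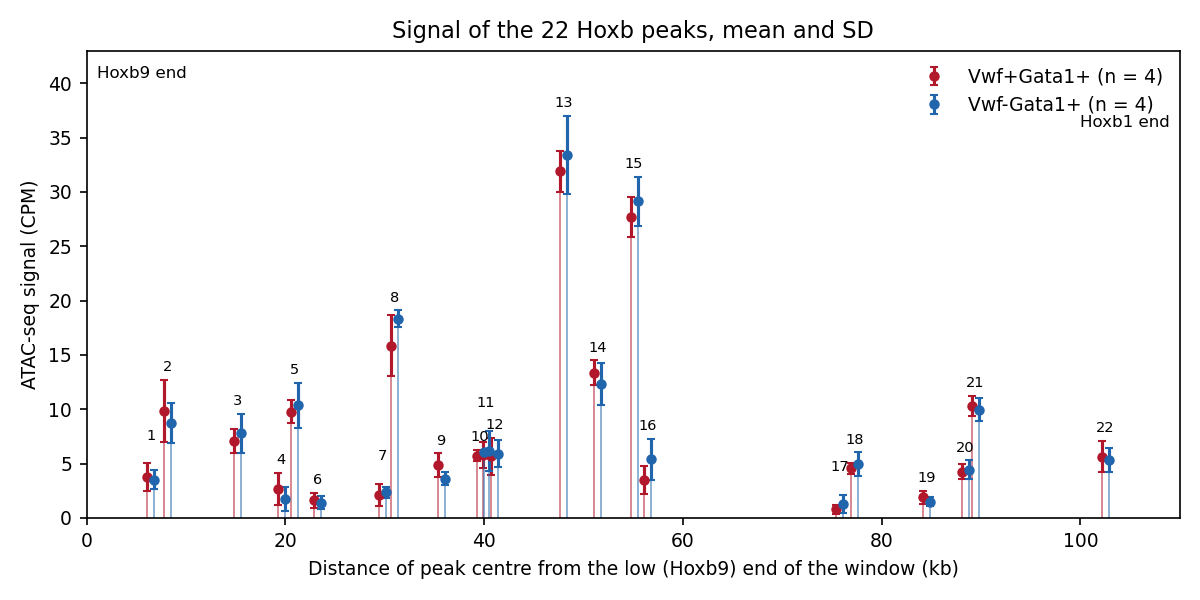
Mean signal in CPM (points, with SD bars over 4 libraries) of each of the 22 Hoxb peaks in Vwf+Gata1+ and Vwf-Gata1+ MPP2 cells, by distance of the peak centre from the Hoxb9 end of the window in kb. Numbers above the points are peak numbers. Peaks 13 and 15, at 48.0 and 55.1 kb, are the highest in both groups, and no peak lies between 56.6 and 75.7 kb.

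The strongest region was peak 13 (mm9, 96172455 to 96173589, 1135 bp). Its signal was 30.4, 31.0, 34.6 and 31.6 CPM in replicates 1 to 4 of Vwf+Gata1+ cells and 34.4, 28.1, 36.3 and 34.9 CPM in those of Vwf-Gata1+ cells. The range of Vwf+Gata1+ cells lay within that of Vwf-Gata1+ cells. Next came peak 15 (96179466 to 96180708, 1243 bp), with 25.4, 30.0, 27.7 and 27.6 CPM in Vwf+Gata1+ cells and 31.9, 29.8, 28.1 and 26.7 CPM in Vwf-Gata1+ cells. Here too the groups overlapped, with replicate 1 lowest in the first group and highest in the second. Averaged over 8 libraries, these peaks had 32.7 and 28.4 CPM. That placed them above 94.4% and 93.2% of all peaks of the table, and the other 20 Hoxb peaks were below the 90th percentile of 20.03 CPM.

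Peak 8 (96155453 to 96156573, 1121 bp), on the Hoxb9 side of these, had 15.4, 14.3, 19.9 and 13.8 CPM in Vwf+Gata1+ cells and 18.9, 17.4, 17.9 and 19.0 CPM in Vwf-Gata1+ cells. All Vwf-Gata1+ libraries lay above 3 of the 4 Vwf+Gata1+ libraries, but replicate 3 of Vwf+Gata1+ cells was the highest of all 8. Peak 14 (96176058 to 96176722, 665 bp), which lies between peaks 13 and 15, had 14.5, 13.7, 13.5 and 11.8 CPM against 14.4, 10.6, 13.7 and 10.8 CPM, again with overlap. The order of these 4 peaks was stable across libraries. Peak 13 was above peak 15 in 7 of 8 libraries, peak 15 above peak 8 in 8 of 8, peak 8 above peak 14 in 8 of 8, and peak 14 above the next peak in 8 of 8. Per length the order changed, with 28.8 CPM per kb at peak 13, 22.9 at peak 15, 19.3 at peak 14 and 18.2 at the narrow peak 10, and 15.2 at peak 8. The median over all peaks of the table was 6.73 CPM per kb.

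Below these the order was less firm. Peak 21 (96213936 to 96214937) had 9.48, 9.76, 10.3 and 11.6 CPM in Vwf+Gata1+ cells and 11.4, 8.76, 9.95 and 9.78 CPM in Vwf-Gata1+ cells, the strongest signal on the Hoxb1 side of the gap. It was above peak 5 in only 3 of 8 libraries, although its mean was higher. Peak 5 (96145454 to 96146310) had 9.75, 8.82, 11.2 and 9.20 CPM against 13.2, 8.30, 9.95 and 9.92 CPM, and replicate 1 of Vwf-Gata1+ cells stood highest. Peak 2 (96132390 to 96133790) was the widest at 1401 bp and lay near the Hoxb9 end. It had 13.96, 8.07, 7.79 and 9.63 CPM against 10.8, 8.46, 6.44 and 9.19 CPM, with replicate 1 the highest in each group. Peak 3 (96139931 to 96140489) had 8.56, 6.19, 6.19 and 7.33 CPM against 8.49, 8.92, 5.07 and 8.61 CPM. Its lowest library was replicate 3 of Vwf-Gata1+ cells, and the groups overlapped.

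**Figure D2:**
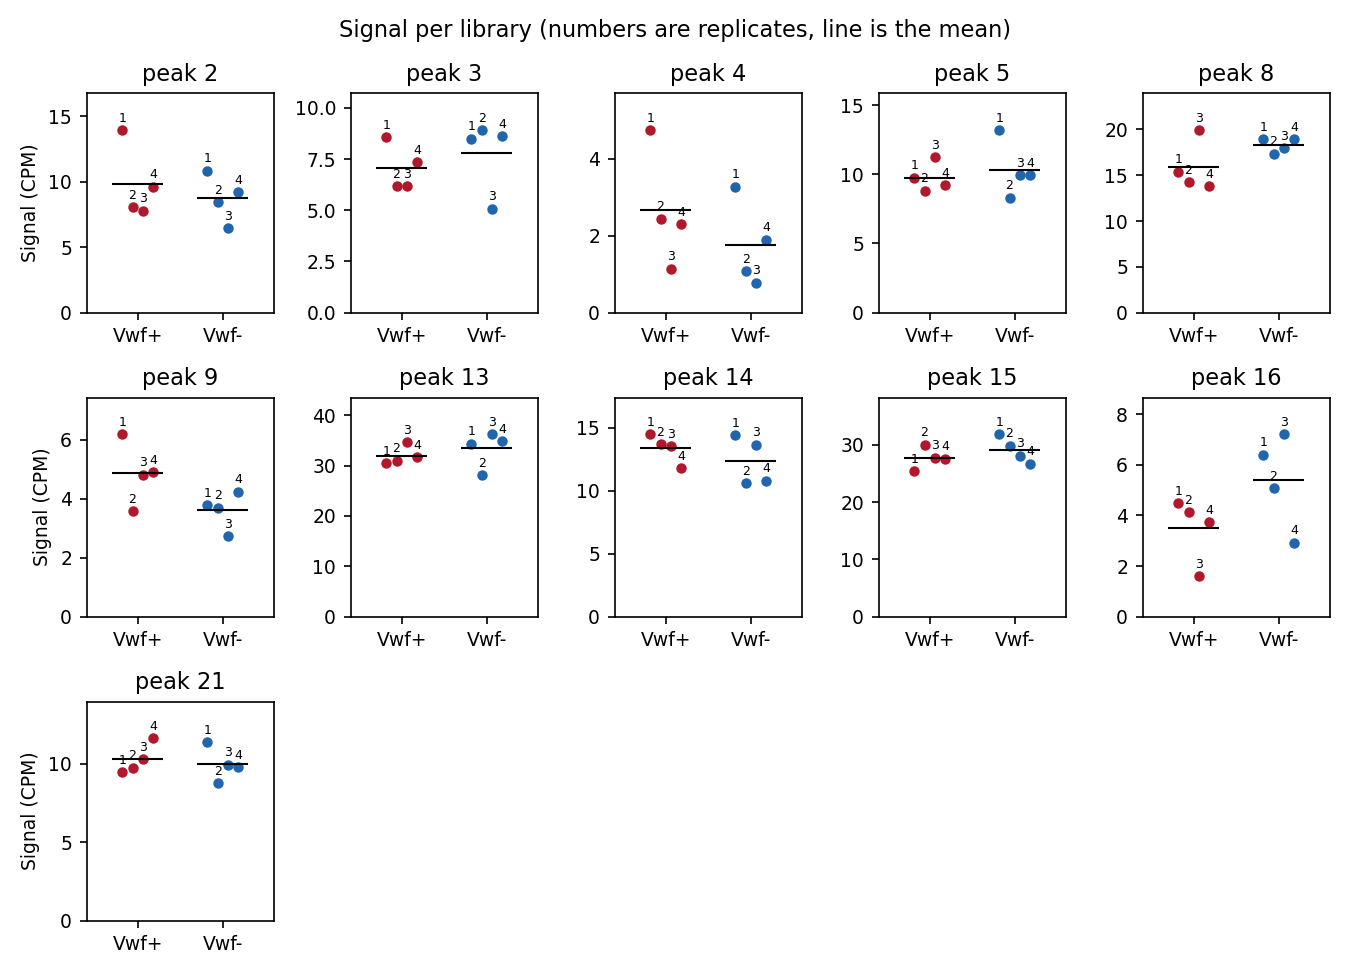
Signal in CPM of each library (points, numbered by replicate) and group mean (line) for the 11 Hoxb peaks that are strongest or have the lowest p. The points of Vwf+Gata1+ and Vwf-Gata1+ cells overlap in every panel, and replicate 1 is the highest of each group at peaks 2, 4 and 14.

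The other 14 peaks had lower means, from 1.05 to 5.97 CPM, where the median over all peaks of the table was 2.78 CPM. Peaks 10, 11 and 12, at 39.6 to 41.1 kb, lay close together with gaps of 106 and 319 bp and had similar means of 5.89, 5.97 and 5.78 CPM. Peak 22 (96227003 to 96227993), nearest the Hoxb1 end, stood 12.1 kb from its neighbour and averaged 5.64 ± 1.43 CPM in the Vwf-positive sort and 5.35 ± 1.11 CPM in the Vwf-negative sort (SD, n = 4 each). Although it was 991 bp wide, its mean over all libraries was only 5.55 CPM per kb. The weakest was peak 17 (96200682 to 96200927), with 2 to 14 counts per library. Peaks 17 and 6 (96148164 to 96148373) were too weak for the test and were left out by the filter on low counts, with 0.804 ± 0.412 against 1.30 ± 0.821 CPM and 1.61 ± 0.691 against 1.39 ± 0.579 CPM (SD, n = 4 each). The rank order of the 22 peaks was broadly alike in all libraries. Spearman's rho was 0.871 to 0.974 for the 12 pairs of libraries within groups and 0.850 to 0.983 for the 16 pairs between groups. Ranks of weaker peaks still moved between libraries, from 7 to 20 at peak 16 and from 10 to 17 at peak 12, while peaks 8 and 14 kept ranks 3 and 4. These correlations are a description over 22 peaks that share their libraries and differ widely in width.

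The comparison of the sorts asks whether Hoxb chromatin differed between Gata1-positive MPP2 cells with and without Vwf. No difference passed the threshold. Of 22 peaks, 20 were tested, and edgeR's quasi-likelihood test called 0 of 20 at an adjusted p under 0.05, where it called 0.0144% of all tested peaks. At an unadjusted p under 0.05 there was 1 of 20, where the share over all tested peaks was 6.72%. The adjusted p-values of the 20 ran from 0.727 to 0.984. With DESeq2 0 of 20 were called, against 0.00824% of all tested peaks, and 0 had an unadjusted p under 0.05, against 3.47%. DESeq2 gave peak 19 no adjusted p, so that peak could not be called there. Using limma-voom with quality weights, 0 of 20 were called, against 0.00103%, and 1 had an unadjusted p under 0.05, against 7.49%. Shares this small leave few calls to be found in any set of 20 peaks. In 0 of 20 did the 4 libraries of a group lie apart from the other 4, where the groups did not overlap at 3.88% of tested peaks. The log2 fold change (Vwf+Gata1+ minus Vwf-Gata1+) was below 0 at 12 of 20 peaks and above 0 at 8, where 49.3% of all tested peaks were below 0. Its median was -0.07, beside 0.00389 over all tested peaks. When replicate 1 of Vwf-Gata1+ cells was left out and the filter rerun, 21 Hoxb peaks were tested. The median was then 0.06, with 8 of 21 below 0. Without replicate 2 of Vwf+Gata1+ cells the median was also 0.06, and with both replicate 1 libraries left out, a fit chosen after seeing the data, it was 0.04.

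The strong peaks gave the tightest bounds. At peak 13 the group means were 31.9 ± 1.87 and 33.4 ± 3.61 CPM (SD, n = 4 each), and the log2 fold change was -0.07 ± 0.10 (SE; edgeR adjusted p = 0.947). Its 95% interval reached from 0.8286 to 1.09 as a ratio of Vwf+Gata1+ to Vwf-Gata1+ signal. At peak 15 the means were 27.7 ± 1.88 and 29.1 ± 2.24 CPM, and the ratio's interval was 0.820 to 1.09. For peak 14 it was 0.881 to 1.33, and for peak 21 0.828 to 1.29. No adjustment for the number of peaks was made to these intervals. They lay within a 2-fold change in either direction at 18 of 20 peaks, the exceptions being peaks 4 and 16.

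**Figure D3:**
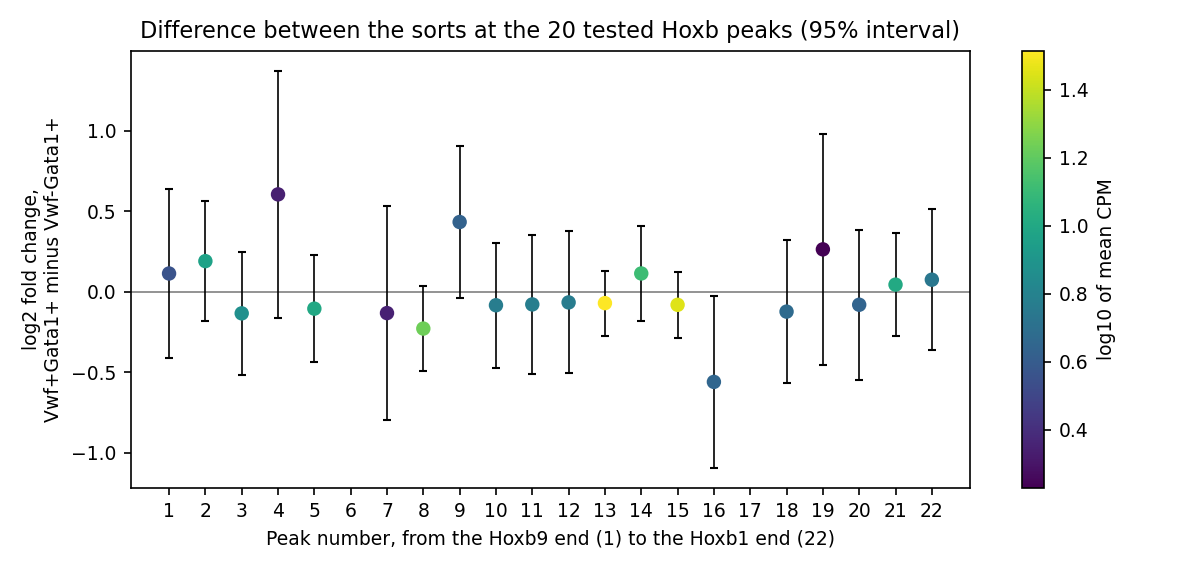
The log2 fold change of Vwf+Gata1+ minus Vwf-Gata1+ cells at the 20 tested Hoxb peaks (points, shaded by mean signal as log10 CPM) with 95% intervals from edgeR, in order from the Hoxb9 end to the Hoxb1 end. The interval of 1 peak, peak 16, excludes 0 before adjustment, and the bright points, peaks 13 and 15, have the shortest intervals.

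The lowest p in the cluster belonged to peak 16 (96181226 to 96181603, 378 bp), 517 bp beyond peak 15. Its mean over all libraries, 4.45 CPM, lay above 63.7% of all peaks. It had 4.48, 4.13, 1.604 and 3.74 CPM in Vwf+Gata1+ cells and 6.40, 5.07, 7.22 and 2.92 CPM in Vwf-Gata1+ cells. Replicate 3 was the lowest library of the first group and the highest of the second, and replicate 4 of Vwf-Gata1+ cells lay below 3 of the 4 Vwf+Gata1+ libraries. The log2 fold change was -0.56 ± 0.26 (SE; unadjusted p = 0.0407, edgeR adjusted p = 0.727). Its counts were 7 to 49 per library. Its value was -0.37 when replicate 3 of Vwf+Gata1+ cells was left out and -0.77 when replicate 4 of Vwf-Gata1+ cells was. No Hoxb peak had an unadjusted p under 0.05 in the edgeR fits that left out replicate 4 of Vwf+Gata1+ cells, or replicate 2 or 3 of Vwf-Gata1+ cells. The lowest adjusted p over the alternatives was 0.389, with the replicate number as a block.

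Peak 9 (96160456 to 96160887) had 6.19, 3.57, 4.81 and 4.89 CPM in Vwf+Gata1+ cells and 3.79, 3.69, 2.73 and 4.23 CPM in Vwf-Gata1+ cells. Of the Vwf+Gata1+ libraries, 3 lay above all Vwf-Gata1+ libraries and replicate 2 below 3 of them, and the log2 fold change was 0.43 ± 0.23 (SE; edgeR adjusted p = 0.772). It was 0.28 without replicate 1 of Vwf+Gata1+ cells. At peak 8 the log2 fold change was -0.23 ± 0.13 (SE; edgeR adjusted p = 0.791).

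Peak 4 (96144456 to 96144680, 225 bp) had the highest log2 fold change of the cluster, 0.60 ± 0.38 (SE; edgeR adjusted p = 0.818). Its libraries had 4.74, 2.44, 1.15 and 2.30 CPM in Vwf+Gata1+ cells and 3.27, 1.08, 0.780 and 1.90 CPM in Vwf-Gata1+ cells, and replicate 1 was the highest and replicate 3 the lowest in each group. The value rested on single libraries, as it was 0.13 when replicate 1 of Vwf+Gata1+ cells was left out and 1.12 when that of Vwf-Gata1+ cells was. Only 4 to 36 counts per library lay behind it. At peak 2 the log2 fold change was 0.19 ± 0.18 (SE; edgeR adjusted p = 0.907), and without replicate 1 of Vwf+Gata1+ cells it was -0.04.

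**Figure D4:**
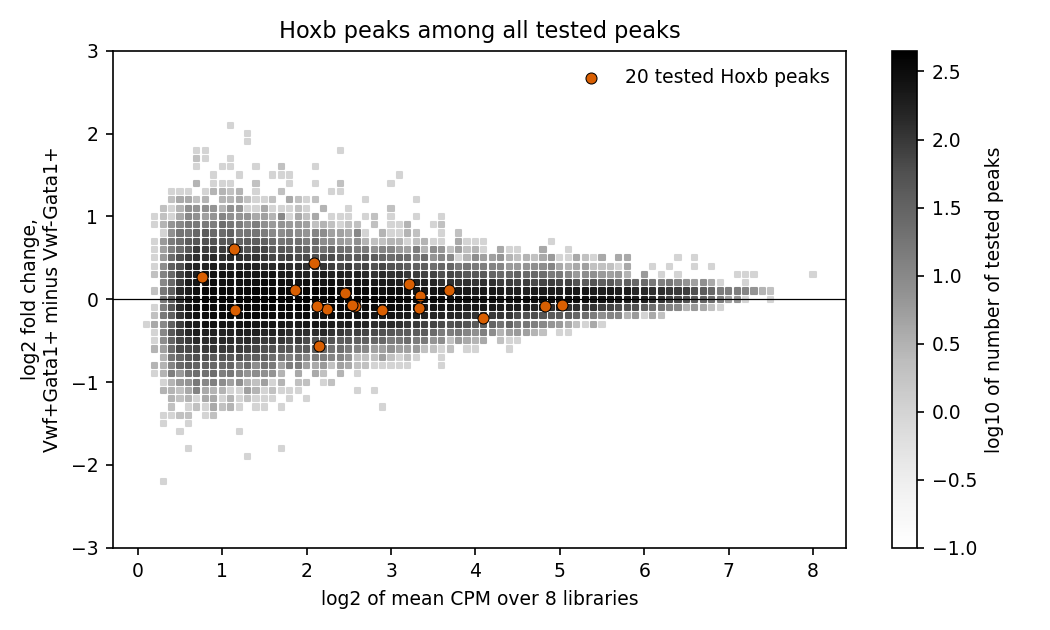
The log2 fold change (Vwf+Gata1+ minus Vwf-Gata1+) against the log2 of mean CPM for all 97040 tested peaks (squares, darker where more peaks lie, as log10 of their number) and the 20 tested Hoxb peaks (orange). The Hoxb peaks lie within the spread of all peaks of like signal and run from -0.56 to 0.60.

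Summed over all 22 peaks, the signal was 191, 169, 181 and 174 CPM in replicates 1 to 4 of Vwf+Gata1+ cells and 208, 168, 177 and 182 CPM in those of Vwf-Gata1+ cells. The means were 179 ± 9.63 and 184 ± 16.9 CPM (SD, n = 4 each), so the difference was smaller than the SD of either group. The ratio of means was -0.04 on the log2 scale. Without single libraries it lay between -0.08 and 0.03, and it was above 0 only without replicate 1 of Vwf-Gata1+ cells. On the low side of the gap the sums were 151 ± 8.45 and 156 ± 14.3 CPM, and on the high side 27.4 ± 1.52 and 27.5 ± 2.78 CPM (SD, n = 4 each).

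Counts summed in 10 kb windows over the whole genome were also tested, and 0 of the 9 Hoxb windows with peaks had an edgeR quasi-likelihood adjusted p under 0.05, where 0.0153% of 65286 tested windows did. None of the 9 had an unadjusted p under 0.05, a share of 7.16% over all tested windows. The strongest window, from 50 to 60 kb, had 44.6 ± 2.29 against 46.9 ± 5.21 CPM (SD, n = 4 each) and differed by -0.08 ± 0.09 on the log2 scale (SE; edgeR adjusted p = 0.910). The window with the lowest p, from 70 to 80 kb, had 5.36 ± 0.571 against 6.23 ± 1.18 CPM and -0.23 ± 0.20 (SE; edgeR adjusted p = 0.872). No other tool was run on windows.

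Part of the spread between libraries lay with those numbered 1. The libraries numbered 1 had the highest summed signal of each group, and 1 of them was the highest library at 13 of 22 peaks. At 5 of 22 peaks both lay above all 6 others. The shares of all peaks of the table with these features were not computed, so the counts are not read as a trait of the Hoxb peaks. Over the 14 lower peaks they had 63.2 and 64.0 CPM, where the other 6 libraries had 46.7 to 52.8 CPM. Over the 8 strongest peaks they had 127 and 143 CPM, where the others had 120 to 131 CPM, so only the Vwf-Gata1+ library stood above them. These libraries were also the deepest, with 7753538 and 7670844 counts, and the part of depth in this was not tested. The labels do not say what a shared number means.

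**Figure D5:**
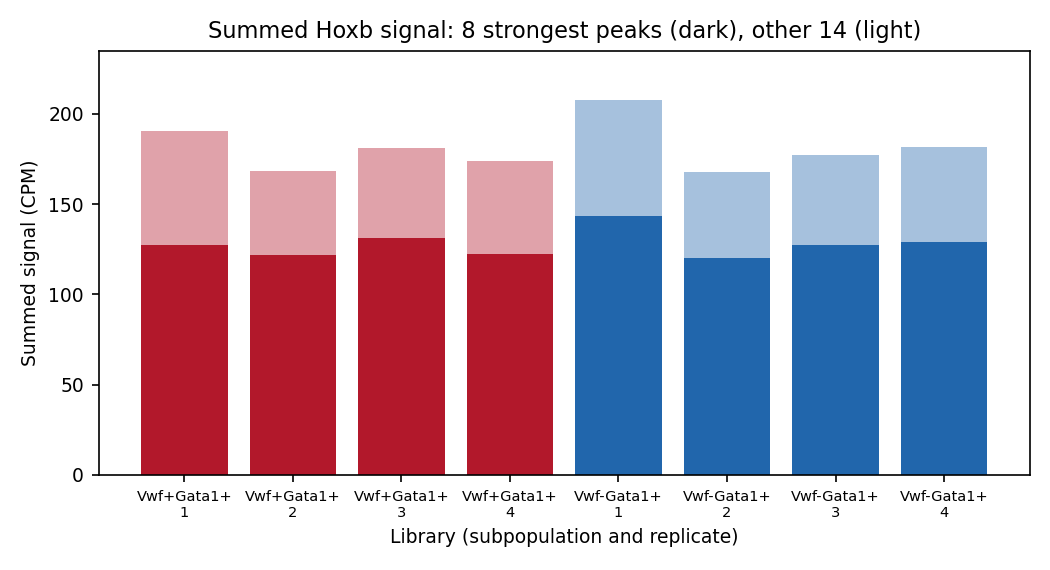
Summed signal in CPM of the 22 Hoxb peaks in each of the 8 libraries, split into the 8 strongest peaks (dark) and the other 14 (light), with Vwf+Gata1+ in red and Vwf-Gata1+ in blue. Replicate 1 has the tallest bar in each group, 191 and 208 CPM.

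The variation between libraries of a group was close to that of all peaks of the table. The coefficient of variation within groups ran from 6.34% at peak 10 to 60.0% at peak 4, with a median of 20.6% over the 20 tested peaks and 21.0% over all tested peaks. When all tested peaks were divided into 3 equal classes by mean signal, 3 Hoxb peaks fell in the weakest, 10 in the middle and 7 in the strongest. Within the strongest class the median was 12.1% for Hoxb peaks and also 12.1% for all peaks of that class. The same medians were 22.1% and 21.7% in the middle class, and 35.6% and 31.0% in the weakest, with its 3 Hoxb peaks.

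Compared with its surroundings, the cluster was rich in accessible DNA. The 110 kb below the Hoxb9 end held 9 peaks with a summed 22.3 CPM, and the 110 kb above the Hoxb1 end held 18 peaks with 60.8 CPM, against 22 peaks and 181 CPM in the cluster. Peaks covered 3.89% and 6.88% of these flanks. In the cluster 5 of 22 peaks were 1000 bp or wider, in the flanks 0 of 9 and 0 of 18, and among all peaks the share was 11.9%. Among 16843 consecutive 110 kb windows of the genome that held a peak, the cluster stood above 96.5% in the number of peaks, above 98.4% in bases covered and above 92.0% in summed signal. Its mean signal per peak, 8.23 CPM, stood above 73.3% of them, where the median was 4.56 CPM. These ranks describe the cluster and were not tested. In the flanks, 0 of 6 and 0 of 10 tested peaks had an unadjusted p under 0.05.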

How the data were processed

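Bulk ATAC-seq libraries of 2 sorted MPP2 subpopulations, 4 per group, were analysed, and the labels' cell type gave each library its group. The authors deposited raw counts per peak for 134473 peaks and 8 libraries. Coordinates are mm9, per the submitters' processing notes, which list MACS2, Picard, Bowtie2, SAMtools, FastQC and Trim Galore. Their settings, any shift of read ends for Tn5, and the handling of duplicates and overlapping peaks were not given in the sources used here. Without a shift, cut sites would be off by a few bases, which is little beside the peak widths.

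Counts were fitted over the whole table with edgeR 4.0.16 (R 4.3.3): filterByExpr with a minimum count of 10 and a total of 15 kept 97040 peaks (96.3% of counts), scaling was by TMM, and the quasi-likelihood test with robust dispersions was adjusted by the Benjamini-Hochberg method at 0.05. The procedure was tested on simulated data. Standard errors were derived from the log2 fold change and the F statistic. Alternatives used limma 3.58.1, DESeq2 1.42.0, a replicate block, other scalings and filters, and each library left out. Fits with 1 library fewer were filtered anew. Figures used Python 3.11.15 and matplotlib 3.10.9.

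The window and lists were chosen with earlier results of these data known. Every peak is accounted for. Peaks given with all libraries are the 8 strongest by mean CPM and the 6 with the lowest p. Planned gate and cell type markers were not analysed here, since no mm9 annotation was used.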

Additional observations from a re-analysis of the deposited data

Results flagged for a closer look

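Of 46 sets of 4 libraries (22 peaks and the summed signal, in each group), 1 held a library far from the other 3, by Dixon's criterion at the 95% level. Chance gives about 1 in 20 such sets. It was peak 3 in Vwf-Gata1+ cells, where replicate 3 had 5.07 CPM and the nearest other library 8.49 CPM.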

How the results depend on the processing

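No Hoxb peak and no Hoxb window passed the threshold under any alternative run. For peaks these were RLE and total count scaling, no filter, a CPM of at least 1 in 4 libraries, an adjusted p under 0.1, DESeq2, limma-voom, the replicate number as a block and each library left out. Windows were run with the block, both scalings, no filter, 20 kb windows and each library left out. With the block, 0 Hoxb peaks passed, while calls over the whole table went from 14 to 511. In that fit 2 Hoxb peaks had an unadjusted p under 0.05 (edgeR). The share over all tested peaks was not computed for it, so this count is not read as a gain at Hoxb. Deviations of same-numbered libraries correlated at 0.309, 0.168, 0.0762 and 0.0109, and for 5 of 8 libraries the closest library of the other group had the same number, which is a hint from the data only. With 4 candidates for each library some such matches arise by chance, and the excess over chance was not tested. The summed log2 ratio was -0.04 as reported and as the mean of differences within replicate numbers (pairing), and -0.08 to 0.03 without single libraries. Leaving out single libraries gave from 8 of 21 to 15 of 20 tested Hoxb peaks with a log2 fold change below 0. Windows of 20 kb put 49.8% of the signal in the strongest, by construction.

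None of the following changes of sign passed a threshold, and the cause was not tested. With limma-voom peak 11 was at 0.0168 and peak 22 at -0.00321. Without single libraries the log2 fold change ran from -0.0706 to 0.304 at peak 1, -0.0442 to 0.320 at peak 2, -0.199 to 0.0492 at peak 5, -0.507 to 0.0571 at peak 7, -0.219 to 0.135 at peak 11, -0.197 to 0.117 at peak 12, -0.205 to 0.0236 at peak 20, -0.0274 to 0.123 at peak 21 and -0.108 to 0.192 at peak 22. Without replicate 1 of both groups, chosen after seeing the data, it was 0.0440 at peak 5, 0.0945 at peak 11, 0.0264 at peak 12, 0.0127 at peak 15, 0.0558 at peak 20 and -0.129 at peak 22. Small differences were least detectable at peaks with few counts, and the median standard error over all tested peaks was 0.33 in the weakest and 0.13 in the strongest of 3 equal signal classes.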
